A study of Mus musculus with 4 samples.

Results

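The gene set described here holds 36 genes of glucose use and of the response to low oxygen, out of 36528 gene rows in the count tables. They were listed by name: 4 transporters of glucose and lactate, 14 enzymes of glycolysis, 4 enzymes that decide the fate of pyruvate, 4 genes of the hypoxia-inducible factor (HIF) system and 10 genes known to respond to it. Each of the 36 was present in the 4 tables, Ero1l under the older symbol of the gene that RefSeq calls Ero1a. The study sequenced single cells of mouse embryonic cortex at E16.5, a stage when radial glia are producing neurons and the first glia. The groups were 2 COP1 KO mice and 2 HET mice, each 1 library, on the C57BL/6 background. The labels abbreviate the first group CKO in the titles, name no Cre driver, and do not say of which gene HET is heterozygous. COP1 helps tag proteins, c-JUN among them, for destruction by the proteasome.

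Glycolysis splits glucose into pyruvate and yields ATP without oxygen. Neural progenitors are known to lean on it more than neurons, which oxidise pyruvate in mitochondria. When oxygen falls, the prolyl hydroxylases encoded by Egln1 and Egln3 stop marking HIF-1α and HIF-2α (Hif1a and Epas1) for destruction, and the stabilised factors raise glucose transporters, glycolytic enzymes, Ldha, Pdk1 and Vegfa. Many glycolytic steps have paralogous enzymes, so a cell type can be recognised by which paralog it uses as much as by how much.

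Counts were unique molecules of transcript 3′ ends, so gene length does not enter a level, and levels are given as CPM, the count scaled to 1e6 counts of the cell class in that library. The 4 libraries held 28049007 to 28988265 counts, and 4310 to 5178 cells of each were used. Clusters were named from marker genes, and each name means "-like": 1342 radial-glia-like cells, 1396 intermediate-progenitor-like, 578 ganglionic-eminence-progenitor-like, 312 oligodendrocyte-precursor-like, 8394 excitatory-neuron-like, 1718 cortical-interneuron-like, 1749 striatal-projection-neuron-like, 249 Cajal-Retzius-like, 20 to 36 vessel-like per library (endothelial and mural together), 92 fibroblast-like and 86 microglia-like cells. Between 13.8% and 15.05% of the cells of a library stayed unnamed. The libraries shared 172 cell barcodes. Rfwd2, the gene of COP1, was listed at 30.6 and 29.7 CPM in COP1 KO libraries, against 32.0 and 39.2 CPM in HET libraries, and 3′ counts of a transcript do not show whether an upstream exon was deleted.

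The levels of several members are uncertain. Genes that every cell uses at high level were listed low: over the whole libraries Gapdh was at 12.1 to 16.1 CPM, Pgk1 at 4.59 to 9.11 CPM and Pgam1 at 1.33 to 2.28 CPM, against 805 to 823 CPM for Pkm. Stretches of 50 bases in the last 400 bases of a transcript also occurred in transcripts of other genes for 80% of those of Eno1, 66.7% of Gapdh, 61.3% of Mif, 32.0% of Gpi1, 23.9% of Ldhb, 23.2% of Bnip3, 17.4% of Pkm, 15.7% of Ldha, 13.0% of Tpi1 and 10.6% of Aldoa, and for none of the other 26 members. Pgk1 and Pgam1 were among those 26, so no shared stretch of this kind was found for them, and the reason for their low listing was not tested. How reads that match several genes were counted is not given in the sources used here. Levels of all the genes named here are taken as uncertain. Their differences between genotypes compare the same rows in each library.

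Among the transporters, Slc2a1 in vessel-like cells had the largest level. Slc2a1, which encodes the glucose transporter GLUT1 of the blood-brain barrier, was at 1024 and 932 CPM in COP1 KO vessel-like cells, against 862 and 1079 CPM in HET vessel-like cells, so the genotypes overlapped. The next class, oligodendrocyte-precursor-like cells, averaged 36.8 CPM and radial-glia-like cells 33.8 CPM. The vessel class kept 18 barcodes with over 5% hemoglobin counts, and blood markers summed to 22787 to 79101 CPM in its libraries. The part of blood RNA in the vessel-like levels was not tested. Slc2a3, encoding the neuronal transporter GLUT3, ran the other way within the neural classes: it was at 12.6 and 16.8 CPM in COP1 KO and 13.5 and 13.1 CPM in HET excitatory-neuron-like cells, and averaged 4.93 CPM in intermediate-progenitor-like cells. Of the counts of both transporters, Slc2a1 made up 97.8% to 99.3% in vessel-like cells, 77.8% to 90.5% in radial-glia-like cells and 39.3% to 50% in excitatory-neuron-like cells. The monocarboxylate carriers also divided by cell type. Slc16a1 (MCT1) made up nearly all of their counts in excitatory-neuron-like cells, where Slc16a3 had a share of 2.0% to 6.4%. Slc16a3 (MCT4), an exporter of lactate typical of glycolytic cells, held 88.5% to 100% in microglia-like cells, from 55 counts of both genes over 4 libraries.

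**Figure D1:**
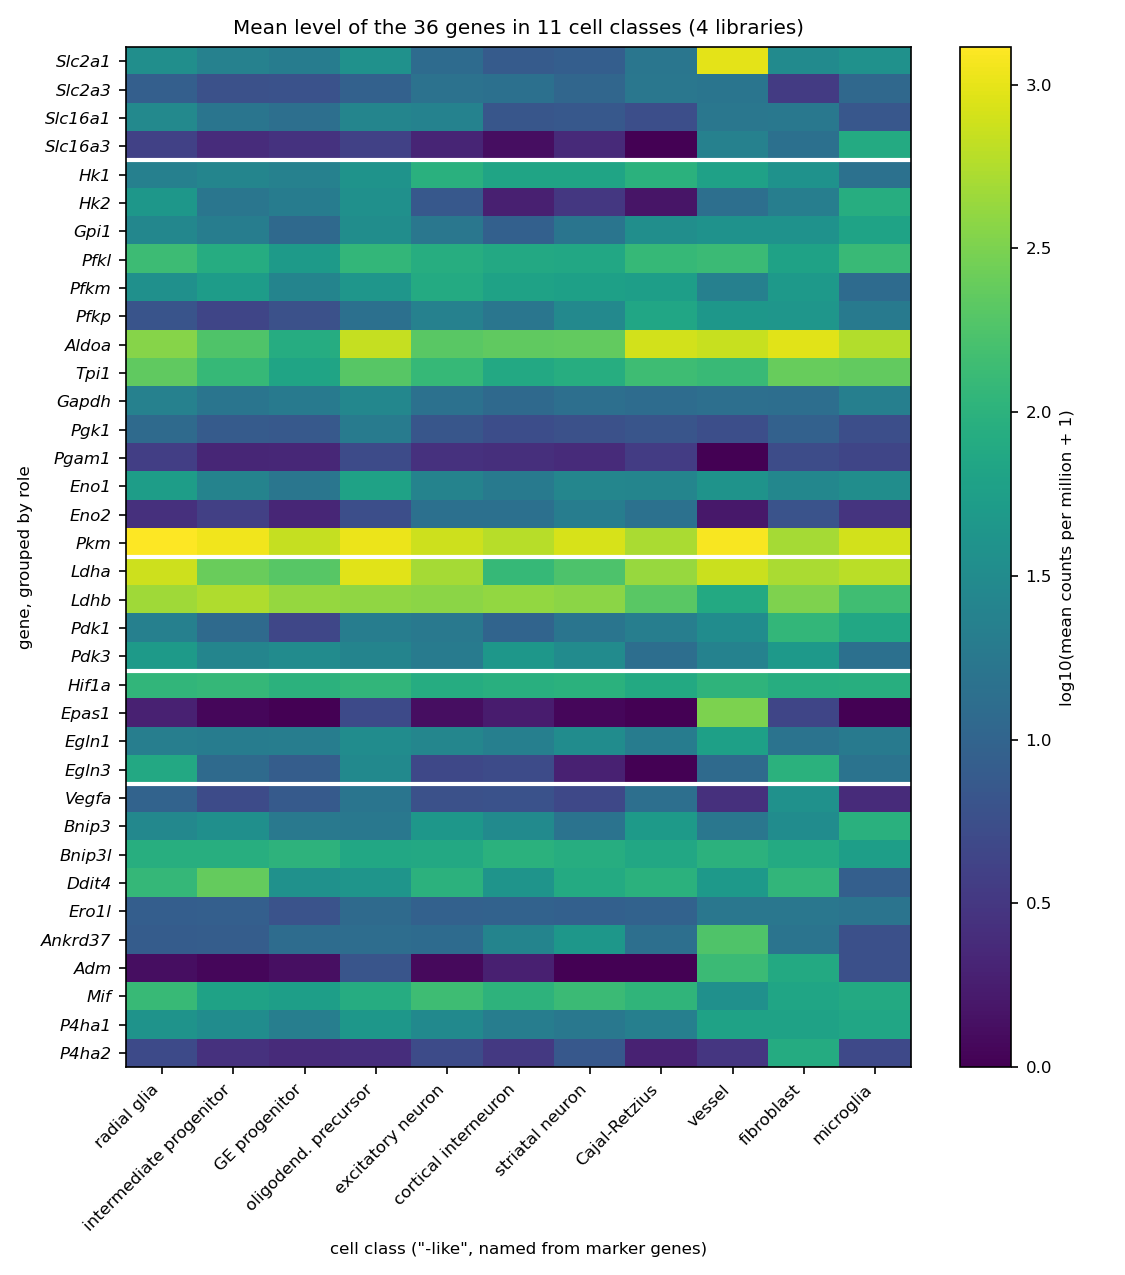
Mean level of each of the 36 genes in 11 cell classes, as log10 of the mean CPM over 4 libraries plus 1; white lines part the 5 roles, from transporters at the top to HIF-responsive genes at the bottom. Slc2a1, Epas1, Adm and Ankrd37 stand out in the vessel column, Hk2 and Egln3 are brighter in radial glia than in neurons, and Pkm, Ldha, Ldhb and Aldoa are the brightest rows. GE is ganglionic eminence.

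Hk2, Pfkl and Eno1 were higher, and Hk1, Pfkm, Pfkp and Eno2 lower, in radial-glia-like than in excitatory-neuron-like cells. Radial-glia-like cells were compared with excitatory-neuron-like cells in a fit on classes clustered without the members, with library as a block, and 76.7% of all 13728 genes tested passed an edgeR adjusted p under 0.05 (37.4% higher and 39.2% lower). Of the 34 members tested, 16 were higher and 9 lower in radial-glia-like cells, so the share of members that differed was near that background and is no result about the set. The median log2 difference of these members was 0.24, and of all genes tested −0.03. Scaling by library totals alone raised the differences, for Aldoa to 0.77 from 0.59 and for Ldha to 0.59 from 0.41, and reversed none that passed.

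Hexokinase, the first step of glycolysis, showed the sharpest exchange. Hk2, the form that growing cells and tumours use, was at 43.1 and 35.3 CPM in COP1 KO and 53.7 and 42.4 CPM in HET radial-glia-like cells, against 6.51 and 6.53 CPM in COP1 KO and 5.78 and 5.96 CPM in HET excitatory-neuron-like cells (log2 difference 2.62, SE 0.139, edgeR adjusted p = 7.46e-11). Hk1, the standard brain form, differed the other way by a log2 of −2.31 (SE 0.088, edgeR adjusted p = 1.21e-12). Hk2 made up 59.9% to 73.0% of hexokinase counts in radial-glia-like cells and 5.3% to 7.0% in excitatory-neuron-like cells. Intermediate-progenitor-like cells lay between, at 34.1% to 41.2%. In cortical-interneuron-like, striatal-projection-neuron-like and Cajal-Retzius-like cells the share was at most 5.2%, and in microglia-like cells it was 81.8% to 93.3%.

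Phosphofructokinase, the committed step, changed its make-up as well. Pfkl held 75.1% to 78.2% of the counts of its 3 genes in radial-glia-like cells and 45.1% to 46.9% in excitatory-neuron-like cells. Pfkm and Pfkp were lower in radial-glia-like cells by log2 differences of −1.32 (SE 0.083) and −2.26 (SE 0.175), and Pfkl was higher by 0.49 (SE 0.057). Pfkp had its highest level in Cajal-Retzius-like cells, the reelin-secreting neurons of the cortical surface, at 47.4 and 60.4 CPM in COP1 KO and 83.8 and 80.6 CPM in HET mice.

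The later steps of glycolysis were higher in radial-glia-like cells: the log2 differences were 0.59 for Aldoa (aldolase A), 0.73 for Tpi1, 0.57 for Gapdh, 0.77 for Pgk1, 0.99 for Eno1 and 0.61 for Pkm, which makes pyruvate. This fit took both genotypes together. Aldoa averaged 535 CPM in the radial-glia-like cluster led by Dbi, Fabp7 and Hes5, and 184 CPM in that led by Fabp7, Mt3 and Dbi. Excitatory-neuron-like clusters averaged 182 to 232 CPM, so only the first of these radial-glia-like clusters stood above them. Gpi1, at the upper end of the path, was higher by 0.57. Enolase had its own neuronal form, Eno2, which was lower in radial-glia-like cells by a log2 of −3.22 (SE 0.298, edgeR adjusted p = 7.05e-08). Pgam1 was too sparse to place, with a log2 difference of 0.49 and an SE of 0.381. The other progenitors did not share this pattern throughout. Among the 9 classes with at least 20 cells in every library, ganglionic-eminence-progenitor-like cells had the lowest mean of 4 of the 14 glycolytic enzyme genes. These were Pfkl (49.2 CPM), Aldoa (84.7 CPM), Tpi1 (65.0 CPM) and Eno1 (15.5 CPM). For Hk2, Gapdh and Pgk1 their mean lay above that of every neuron class. Among these 9 classes Aldoa had its highest mean in Cajal-Retzius-like cells, at 789 CPM. Vessel-like cells came next at 705.5 CPM, and the libraries of these classes overlapped. Pooled fibroblast-like cells, outside the 9, were at 961 CPM (793 counts, 95% Poisson interval 895 to 1030 CPM).

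**Figure D2:**
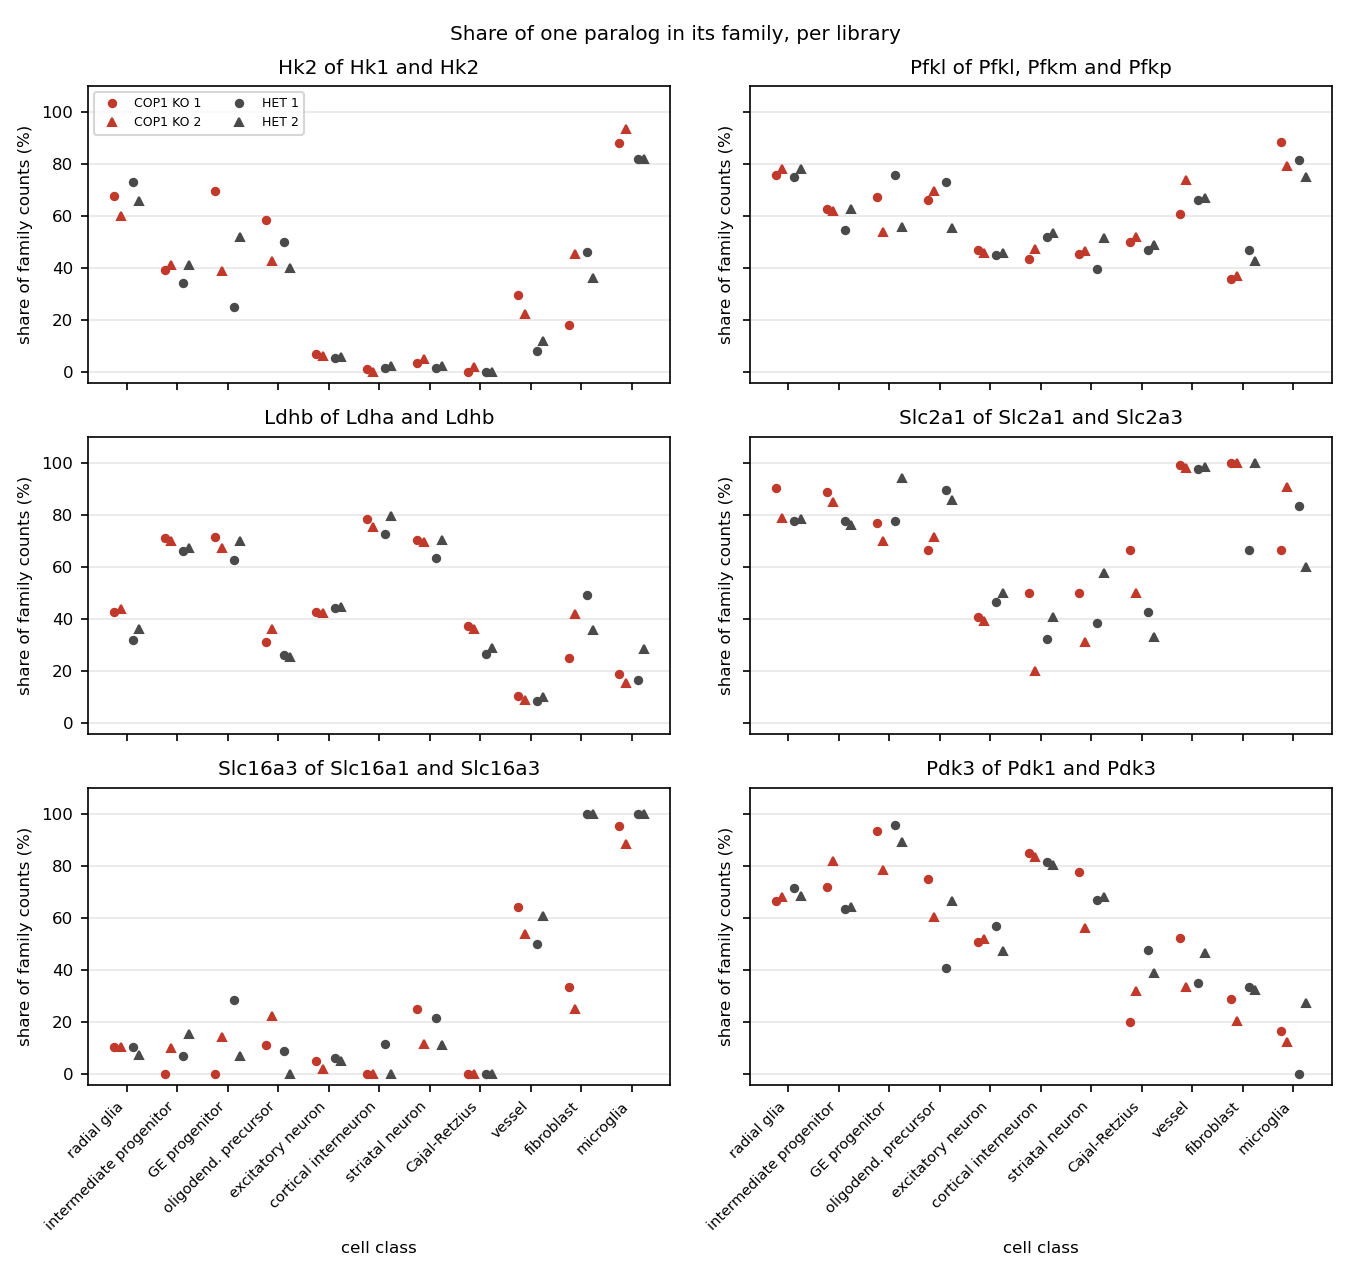
Share (%) of one gene in the summed counts of its family, per library and cell class; circles and triangles are the 2 libraries of a genotype, COP1 KO in red to the left of HET in grey. Hk2 and Pfkl shares are higher in radial glia than in the 4 neuron classes, Slc2a1 is near 100% in vessel cells, and Ldhb shares are highest in interneurons and lowest in vessel cells; shares in fibroblasts and microglia rest on few counts.

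At the pyruvate branch, Ldha and Ldhb encode the M and H subunits of lactate dehydrogenase, and Ldha is the known HIF target of the pair. Ldhb made up 72.9% to 79.5% of the pair in cortical-interneuron-like cells, 62.5% to 71.7% in ganglionic-eminence-progenitor-like cells, 25.4% to 36.3% in oligodendrocyte-precursor-like cells and 8.5% to 10.4% in vessel-like cells. Ldha was at 951 and 817 CPM in COP1 KO and 878 and 1122 CPM in HET oligodendrocyte-precursor-like cells, its highest level, against 115 and 137 CPM in COP1 KO and 134 and 105 CPM in HET cortical-interneuron-like cells.

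The same balance divided excitatory-neuron-like cells among themselves. In a clustering that left out the members, the cluster led by Hs3st4, Sybu and Dync1i1 had an Ldhb share of 28.5% to 31.7%, and the cluster led by Fezf2, Dync1i1 and Sla 27.1% to 31.7%. Fezf2 is known from deep-layer projection neurons. The cluster led by 9130024F11Rik, Neurod6 and Neurod2, the last a pair of neuronal differentiation factor genes, had a share of 78.2% to 81.9%, and the Tfap2d-led cluster 71.2% to 74.5%. No library of the first pair of clusters reached any library of the second pair. Ldha averaged 744 CPM in the Fezf2-led cluster and 158 CPM in the Neurod6- and Neurod2-led cluster, while Ldhb averaged 314 and 634 CPM in them. In intermediate-progenitor-like cells, the Eomes-led cluster had a share of 74.1% to 78.9%, and the dividing cluster led by Neurog2 47.3% to 53.9%.

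Pyruvate dehydrogenase kinases hold pyruvate back from mitochondria. Pdk3 made up 66.7% to 71.5% of the counts of Pdk1 and Pdk3 in radial-glia-like cells and 47.4% to 57.0% in excitatory-neuron-like cells. The level of Pdk3 was higher in the former by a log2 of 1.21 (SE 0.096). Its share was 80.3% to 85% in cortical-interneuron-like, 78.6% to 95.8% in ganglionic-eminence-progenitor-like, 56.2% to 77.6% in striatal-projection-neuron-like and 20% to 47.6% in Cajal-Retzius-like cells. Pdk3 averaged 48.1 CPM in radial-glia-like and 43.0 CPM in cortical-interneuron-like cells, and their libraries overlapped. Pdk1, a HIF target, was at 111 CPM in pooled fibroblast-like cells (92 counts, 95% Poisson interval 89.9 to 137 CPM) and at 74.9 CPM in pooled microglia-like cells (45 counts, 54.6 to 100 CPM), against class means of 3.66 to 31.9 CPM elsewhere. These intervals cover counting error only.

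In the HIF system, Hif1a was spread evenly, with class means of 76.3 CPM in Cajal-Retzius-like to 118 CPM in intermediate-progenitor-like cells among the 9 classes with at least 20 cells in every library. Epas1, encoding the HIF-2α of endothelium, was at 257 and 355 CPM in COP1 KO and 342 and 314 CPM in HET vessel-like cells. It was at 0.23 to 0.38 CPM in excitatory-neuron-like cells of the 4 libraries. Egln3, a hydroxylase gene that HIF itself raises, was at 67.2 and 67.7 CPM in COP1 KO and 86.5 and 81.8 CPM in HET radial-glia-like cells, where each library exceeded every library of the next of these 9 classes, oligodendrocyte-precursor-like cells at a mean of 29.4 CPM. Its log2 difference against excitatory-neuron-like cells, 4.24 (SE 0.131, edgeR adjusted p = 9.34e-14), was the largest among the members in size. Outside the 9 classes, pooled fibroblast-like cells had Egln3 at 92.1 CPM (76 counts, 95% Poisson interval 72.5 to 115 CPM). That level was not below those of radial-glia-like cells, so the lead of the latter holds among the 9 classes only. Egln1, the main oxygen sensor, differed by a log2 of −0.52 (SE 0.120) and was highest in vessel-like cells.

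The HIF-responsive genes did not share 1 pattern. Adm, encoding the vasodilator adrenomedullin, was at 112 to 155 CPM in vessel-like cells, and Ankrd37 at 112 to 227 CPM there. Ankrd37 came next in striatal-projection-neuron-like cells, at 38.8 to 47.4 CPM. Ddit4, an inhibitor of mTORC1, was highest in intermediate-progenitor-like cells, at 237 and 212 CPM in COP1 KO and 257 and 254 CPM in HET mice, without overlap with radial-glia-like cells at 106 to 125.5 CPM. Vegfa, the vessel growth factor, was low in the neural classes, with a mean of 8.80 CPM in radial-glia-like cells, and at 36.3 CPM in pooled fibroblast-like cells (30 counts, 24.5 to 51.9 CPM). The collagen prolyl hydroxylase gene P4ha2 was at 81.2 CPM in pooled fibroblast-like cells (67 counts, 62.9 to 103 CPM) and at most at a class mean of 6.25 CPM in the 9 larger classes. Bnip3, a mitophagy receptor gene, was at 93.2 CPM in pooled microglia-like cells (56 counts, 70.4 to 121 CPM). Bnip3l, a relative of Bnip3, had class means of 72.3 to 102 CPM in the 9 larger classes, and neither for it nor for Ero1l, an endoplasmic reticulum oxidase gene, did neighbours in the order of classes stand apart in all libraries. The class means of P4ha1, the partner gene of P4ha2, ran from 16.8 CPM in striatal-projection-neuron-like to 60.5 CPM in vessel-like cells, and those of the cytokine gene Mif from 35.9 CPM in vessel-like to 141 CPM in excitatory-neuron-like cells. For 10 of the 36 genes the highest of the 9 classes stood above the next in every library.

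Between COP1 KO and HET mice 2 of these genes passed the test, Aldoa and Ldhb, both higher in radial-glia-like cells of COP1 KO mice. Over whole libraries, 0 of 36 members passed an edgeR adjusted p under 0.05, where 0.00589% of all genes tested did, 4 had an unadjusted p under 0.05 (10.4% of all genes did), and DESeq2 also called 0. The median log2 change of the members was −0.02, and of all genes 0.00. In radial-glia-like cells 2 of the 31 members tested passed, both upward, where 2.68% of all 11660 genes tested did (1.89% upward and 0.789% downward), and DESeq2 called 2. An unadjusted p under 0.05 was found for 4 members, and for 14.4% of all genes. The members left out there for low counts were Slc16a3, Pgam1, Eno2, Epas1 and Adm. The median log2 change of the 31 members was −0.01, and 15 were above and 16 below 0.

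Aldoa was at 419 and 433.5 CPM in COP1 KO radial-glia-like cells, against 273 and 291 CPM in HET radial-glia-like cells. Both COP1 KO libraries were above both HET libraries. The means were 426 ± 10.2 CPM in COP1 KO and 282 ± 12.5 CPM in HET cells (SD, n = 2 each), which is a change of 0.64 on the log2 scale (SE 0.074; adjusted p = 0.00394, edgeR). Aldoart1, a near-identical copy, was low in the same cells, at 3.38 and 5.40 CPM in COP1 KO, against 6.47 and 5.14 CPM in HET cells.

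Ldhb was at 535 and 552 CPM in COP1 KO radial-glia-like cells, against 383 and 417 CPM in HET radial-glia-like cells, again without overlap. The means were 543 ± 12.04 CPM in COP1 KO and 400 ± 24.03 CPM in HET cells (SD, n = 2 each), which is a change of 0.49 on the log2 scale (SE 0.077; adjusted p = 0.0158, edgeR). Without HET replicate 1 the adjusted p was 0.0542 at a log2 change of 0.43. Ldha was at 716 and 700 CPM in COP1 KO, against 816 and 739 CPM in HET radial-glia-like cells, and did not pass (log2 change −0.09, edgeR adjusted p = 0.688). The Ldhb share of the pair was 43.4% ± 0.94 in COP1 KO and 34.0% ± 2.92 in HET radial-glia-like cells (SD, n = 2 each). With 2 libraries a group, 0.333 is the smallest two-sided p of an exact permutation test, so a single value like this share cannot pass one.

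**Figure D3:**
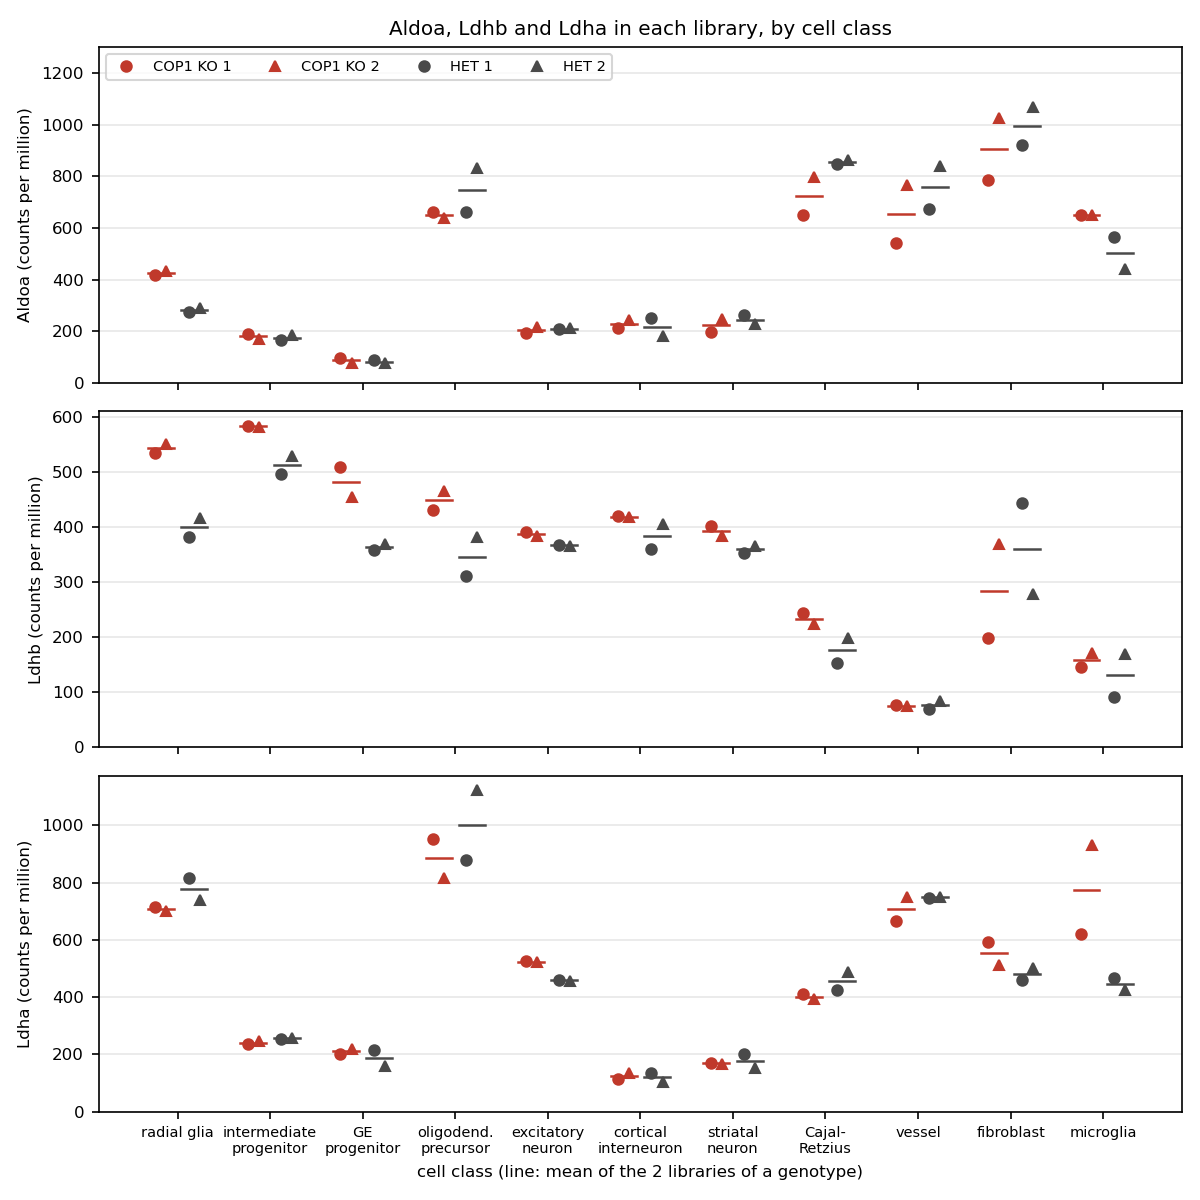
CPM of Aldoa, Ldhb and Ldha in each library by cell class, COP1 KO in red to the left of HET in grey, with a line at each genotype's mean. In radial glia the COP1 KO points for Aldoa lie at 419 and 433.5 against 273 and 291 in HET; Ldhb points of COP1 KO lie above those of HET in most classes, and Ldha points of COP1 KO lie above HET in excitatory neurons and below HET in radial glia.

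The 3 genes on which these results rest have start-site windows in RefSeq (GRCm38.p6). They are shown with the core letters of the hypoxia response element marked. Capitals mark ACGTG and GCGTG on either strand, and in Ldha a palindromic CACGTG counts once for each strand.
Aldoa, chr7:126799205-126799504, minus strand: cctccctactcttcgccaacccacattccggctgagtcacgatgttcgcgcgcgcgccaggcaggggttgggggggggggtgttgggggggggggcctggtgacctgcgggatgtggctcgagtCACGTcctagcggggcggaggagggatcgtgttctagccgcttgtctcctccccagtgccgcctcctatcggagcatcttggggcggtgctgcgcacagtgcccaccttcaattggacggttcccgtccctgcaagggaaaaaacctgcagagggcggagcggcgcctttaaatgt
Ldhb, chr6:142507908-142508207, minus strand: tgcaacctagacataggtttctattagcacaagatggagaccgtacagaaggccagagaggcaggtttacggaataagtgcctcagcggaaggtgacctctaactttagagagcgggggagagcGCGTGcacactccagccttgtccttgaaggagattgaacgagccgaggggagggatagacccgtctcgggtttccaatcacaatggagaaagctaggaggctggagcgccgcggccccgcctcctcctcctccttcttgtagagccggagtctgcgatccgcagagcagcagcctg
Ldha, chr7:46845554-46845853, plus strand: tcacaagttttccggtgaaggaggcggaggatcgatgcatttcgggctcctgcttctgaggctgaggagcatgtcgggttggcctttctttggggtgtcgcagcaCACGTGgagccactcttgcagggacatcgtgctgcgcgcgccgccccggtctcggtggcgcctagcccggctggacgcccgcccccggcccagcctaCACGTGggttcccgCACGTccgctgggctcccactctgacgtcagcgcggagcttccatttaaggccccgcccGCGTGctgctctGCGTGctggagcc
The windows held 1, 1 and 7 matches, in the order printed. Ldhb has no other window in the table, while Aldoa has 2 more, with 1 and 0 matches, and Ldha has 1 more, with 2 matches. Of the 33 members with windows 90.9% had a match, against 46.7% of all 27025 genes with windows, without matching for base composition. A match is a run of letters, not a bound site.

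The rise of Aldoa and Ldhb differed from what excitatory-neuron-like cells showed. Aldoa was at 195 and 215 CPM in COP1 KO and 207 and 211.5 CPM in HET excitatory-neuron-like cells. The class-by-genotype term, radial-glia-like minus excitatory-neuron-like, was 0.65 for Aldoa (SE 0.075, edgeR adjusted p = 1.38e-06), 0.38 for Ldhb (SE 0.070, adjusted p = 0.00106) and −0.30 for Ldha (SE 0.065, adjusted p = 0.00519). These were 3 of 34 members tested, where 2.2% of all genes passed (1.46% upward and 0.742% downward). Ldha was at 527 and 521 CPM in COP1 KO, against 461 and 456 CPM in HET excitatory-neuron-like cells, and did not pass there on its own (log2 change 0.22, edgeR adjusted p = 0.326). The terms for Ldhb and Ldha lost their call without either COP1 KO library: the adjusted p was 0.0785 and 0.147 for Ldhb, and 0.252 and 0.248 for Ldha.

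**Figure D4:**
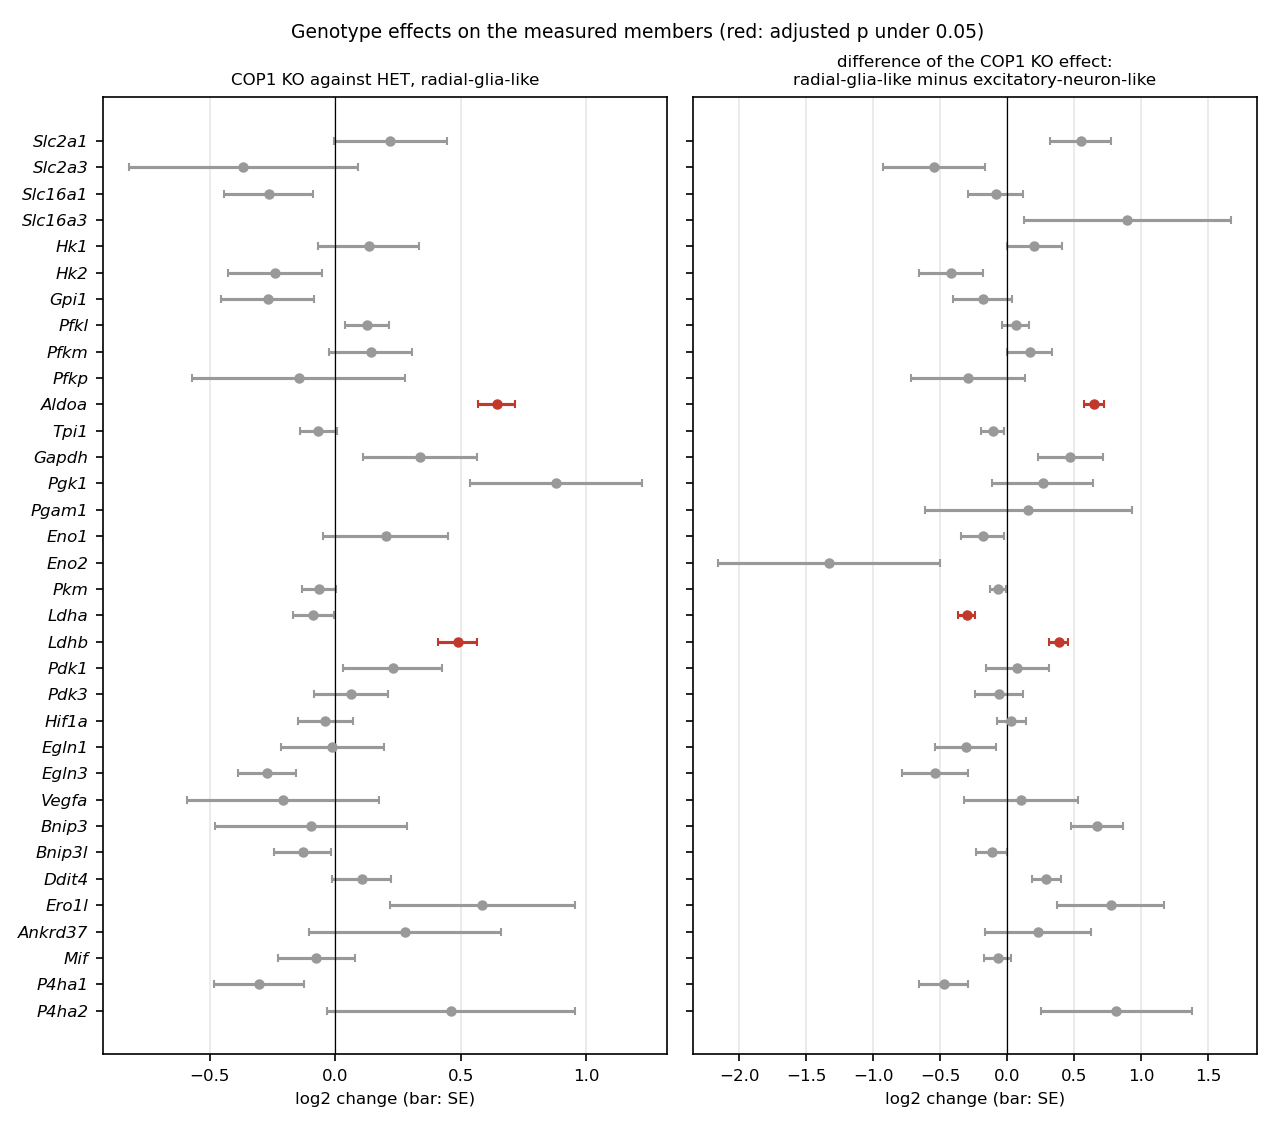
Log2 changes with their SE for the members tested: COP1 KO against HET in radial-glia-like cells on the left, and that effect minus the effect in excitatory-neuron-like cells on the right. Aldoa (0.64) and Ldhb (0.49) pass on the left, and Aldoa (0.65), Ldhb (0.38) and Ldha (−0.30) on the right.

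The radial-glia-like class was made of a dividing cluster, with high Top2a, and a non-dividing cluster, whose shares were not the same in the libraries. Non-dividing cells were 67.2% and 62.9% of the class in COP1 KO, against 56.8% and 56.4% in HET libraries. Aldoa was higher in non-dividing cells, at 551 and 666 CPM in COP1 KO and 429 and 466 CPM in HET. In dividing cells it was at 237 and 195 CPM in COP1 KO and 145 and 127 CPM in HET. COP1 KO libraries were above HET libraries within both clusters, and the log2 change was 0.49 (SE 0.114, edgeR adjusted p = 0.0497) in the non-dividing and 0.71 (SE 0.130, adjusted p = 0.00531) in the dividing cluster. Ldhb was at 624 and 661 CPM in COP1 KO and 461 and 507 CPM in HET non-dividing cells, and at 412 and 440 CPM in COP1 KO and 319 and 333 CPM in HET dividing cells, with log2 changes of 0.46 (adjusted p = 0.0437) and 0.43 (adjusted p = 0.0215).

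Markers of other cell types also stood at unlike levels in the libraries of this class. Cells with a count of Olig1 or Olig2 were 17.3% and 29.8% of it in COP1 KO, against 10.3% and 11.2% in HET libraries. Without them the log2 change was 0.76 for Aldoa and 0.63 for Ldhb (edgeR adjusted p = 0.000953 and 0.00272). The 12 meninges markers summed to 75.6 and 91.8 CPM in COP1 KO, against 38.8 and 34.7 CPM in HET radial-glia-like cells, with none of the 12 at 0, and Fn1 among them rose (log2 change 1.73, edgeR adjusted p = 0.00718). The 19 vessel markers summed to 85.3 and 92.2 CPM in COP1 KO, against 55.2 and 72.4 CPM in HET cells, with Tek and Emcn at 0, and Rgs5 rose (log2 change 2.22, adjusted p = 0.0229). The 9 blood markers summed to 303 and 182 CPM in COP1 KO, against 179 and 152 CPM in HET cells, with Slc4a1 at 0, and the 13 microglia markers to 16.5 and 21.6 CPM, against 22.4 and 27.8 CPM, with none at 0. The part of these in the levels of Aldoa and Ldhb was not tested. Aldoa was at 784 to 1066 CPM in fibroblast-like and 541 to 840 CPM in vessel-like cells, and Ldhb at 199 to 444 CPM in fibroblast-like and 69.1 to 84.2 CPM in vessel-like cells.

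Single genes of the same pathways outside the set moved in both directions in radial-glia-like cells. Of 23 other glycolysis and pyruvate genes tested, 0 rose and 2 fell, where 1.89% of all genes tested rose and 0.789% fell. An unadjusted p under 0.05 was found for 3 of the 23, and for 14.4% of all genes. Aldoc, encoding the aldolase typical of astroglia, fell to 591 and 564 CPM in COP1 KO, against 796 and 822 CPM in HET cells (log2 change −0.44, edgeR adjusted p = 0.0249), so 1 aldolase gene was higher and another lower. Tkt, encoding the transketolase of the pentose phosphate path, fell to 447 and 473 CPM in COP1 KO, against 630 and 645 CPM in HET cells (log2 change −0.42, edgeR adjusted p = 0.0219). Of 23 other HIF pathway genes tested, 1 rose and 0 fell, and 7 had an unadjusted p under 0.05, counts read against the same shares of all genes. That gene was Ndrg1, a stress- and hypoxia-inducible gene, at 124 and 114 CPM in COP1 KO, against 12.4 and 8.13 CPM in HET cells (3.59 on the log2 scale; adjusted p = 0.000170, edgeR). In excitatory-neuron-like cells Ndrg1 was at 118 and 134 CPM in COP1 KO and 119 and 116 CPM in HET mice.

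Among the members, Vegfa was at 6.76 and 9.14 CPM in COP1 KO, against 12.4 and 6.85 CPM in HET radial-glia-like cells. For Egln3 the log2 change was −0.27 (adjusted p = 0.335, edgeR), Slc2a1 was at 36.3 and 35.7 CPM in COP1 KO against 24.4 and 39.0 CPM in HET cells, and of the 9 HIF-responsive members tested 0 passed with edgeR or DESeq2 and 0 had an unadjusted p under 0.05, a count read against 2.68% and 14.4% of all genes. Of 11 integrated and unfolded protein stress genes tested, 0 rose and 0 fell with edgeR, and 2 had an unadjusted p under 0.05. Of 14 dissociation and immediate early genes, 5 had an unadjusted p under 0.05, Ier3 rose (log2 change 1.60, edgeR adjusted p = 0.0451) and Jun fell (log2 change −0.94, adjusted p = 0.00159), and the 16 listed genes summed to 3786 and 3242 CPM in COP1 KO, against 4373 and 4416 CPM in HET cells.

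In the other tested classes 0 members passed with edgeR or with DESeq2. Members tested there numbered 34 in excitatory-neuron-like, 28 in intermediate-progenitor-like, 21 in ganglionic-eminence-progenitor-like, 22 in oligodendrocyte-precursor-like, 26 in cortical-interneuron-like, 28 in striatal-projection-neuron-like, 18 in Cajal-Retzius-like and 21 in vessel-like cells. In the same order, 0%, 0.647%, 0.322%, 0.117%, 0.0101%, 0.00966%, 0.0135% and 0% of all genes passed. An unadjusted p under 0.05 was found for 3 members in excitatory-neuron-like cells (9.26% of all genes), 1 in intermediate-progenitor-like (10.8%), 2 in ganglionic-eminence-progenitor-like (7.24%), 1 in oligodendrocyte-precursor-like (8.94%), 0 in cortical-interneuron-like (5.9%), 4 in striatal-projection-neuron-like (6.33%), 4 in Cajal-Retzius-like (6.38%) and 1 in vessel-like cells (4.72%). Fibroblast-like and microglia-like cells had under 20 cells in a library and were not tested. Ldhb had positive log2 changes in these classes, of 0.44 in ganglionic-eminence-progenitor-like (edgeR adjusted p = 0.146), 0.43 in Cajal-Retzius-like (0.723), 0.32 in oligodendrocyte-precursor-like (0.638) and 0.22 in intermediate-progenitor-like cells (0.340), down to 0.03 in vessel-like cells.

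Single libraries decided other values. COP1 KO replicate 1 stood apart in Bnip3, at 14.3 CPM over the whole library, against 42.0 CPM in COP1 KO replicate 2 and 45.7 and 44.8 CPM in HET libraries. It was the lowest of the 4 libraries for Bnip3 in 9 of 9 classes. Eno2 was at 3.37 CPM in that library, against 13.3 CPM in the other COP1 KO library and 15.1 and 15.4 CPM in HET libraries. These were the members among 31 with a mean of at least 5 CPM that differed by over 1 on the log2(CPM + 1) scale in 1 library, and in the same library 116 of 11361 genes (1.02%) did so. COP1 KO replicate 2 held the highest Eno1, at 40.0 CPM, against 23.6 CPM in COP1 KO replicate 1 and 25.9 and 22.6 CPM in HET libraries. Neither Bnip3, Eno2 nor Eno1 passed between genotypes with all 4 libraries.

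**Figure D5:**
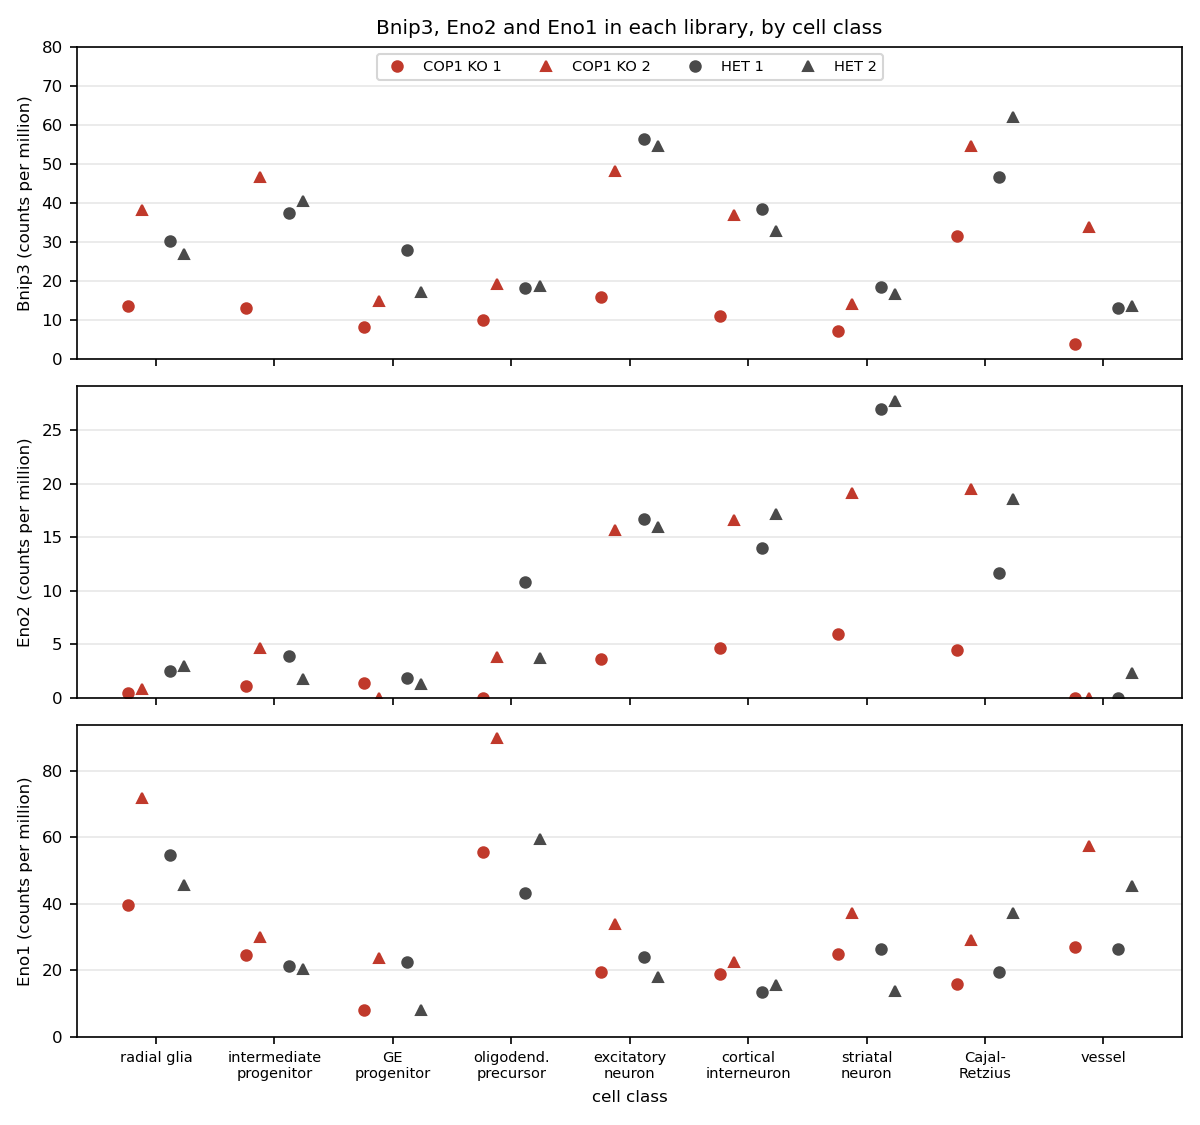
CPM of Bnip3, Eno2 and Eno1 in each library for the 9 larger cell classes, COP1 KO in red to the left of HET in grey. The circle of COP1 KO replicate 1 is the lowest of the 4 points for Bnip3 in 9 of 9 classes, and the triangle of COP1 KO replicate 2 is the highest for Eno1 in 8 of 9.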

How the data were processed

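Counts per gene and cell barcode were deposited for 4 libraries (10x Chromium 3′ v2, 1 mouse each, per the labels' protocols). The submitters' processing notes name GSNAP and GRCm38 (mm10); which annotation was used, and how multi-mapped reads were treated, is not stated there or in the labels. Of 19237 barcodes, 222 with under 500 genes, 1 with over 10% mitochondrial counts and 231 with a Scrublet score over 0.25 were left out, and 57 rows that copied another row were dropped. Cells were clustered (scanpy 1.11.5, 2000 variable genes, 30 components, Leiden resolution 1.0) and clusters named from marker lists; the doublet, hemoglobin and naming limits were chosen once the data had been seen. Barcodes with over 5% hemoglobin counts (40) were left out except in the vessel class, where 18 stayed. Counts were summed per class and library and tested with edgeR 4.0.16 (quasi-likelihood, TMM, filterByExpr, Benjamini-Hochberg over all genes tested in that fit, threshold 0.05); classes needed 20 cells in every library. Nothing in the labels says whether the mice came from separate litters, so p-values measure the spread between these libraries. The replicates of a genotype differed beyond counting noise (chi-square per degree of freedom 18.9 for COP1 KO and 9.93 for HET), and COP1 KO replicate 1 differed most from the rest. On simulated counts for the radial-glia-like class of 11429 genes, 40% of genes changed by log2 0.5 and 91% of genes changed by log2 1 were called, with 9 false calls. Changes were put only into genes with a mean over 20 CPM, and the spread followed the fitted trend without a part of each gene's own. Recovery of changes in lower members was not measured.

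Alternatives were other scaling (RLE, library totals), DESeq2 1.42.0, no low-count filter, other cell filters and clusterings, and leaving out each library. Named genes are every member, every member past the threshold with each library's value, the paralog families, and genes of the other pathway lists past the threshold in radial-glia-like cells. The members and lists were chosen with earlier results of these data known. Gene positions and promoter windows are from RefSeq (GRCm38.p6).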

Additional observations from a re-analysis of the deposited data

Results flagged for a closer look

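In 3 of the 34 members tested the change between COP1 KO and HET libraries was not the same in radial-glia-like cells as in those like excitatory neurons. The class-by-genotype term of the library-blocked edgeR fit tests that difference itself. Of all genes tested, 2.2% passed for this term. For Aldoa the difference on the log2 scale was 0.65 (edgeR adjusted p = 1.38e-06): both COP1 KO libraries were above both HET libraries in radial-glia-like cells, and the libraries overlapped in excitatory-neuron-like cells. For Ldhb it was 0.38 (edgeR adjusted p = 0.00106), with COP1 KO libraries above HET libraries in both classes. For Ldha it was −0.30 (edgeR adjusted p = 0.00519): COP1 KO libraries were below HET libraries in radial-glia-like cells and above them in excitatory-neuron-like cells. The terms for Ldhb and Ldha lost their call when either COP1 KO library was left out, with adjusted p of 0.0785 and 0.147 for Ldhb and 0.252 and 0.248 for Ldha. Each of these genes shares part of its 3′ end with other genes, and the part of that in the differences was not tested.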

How the results depend on the processing

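Leaving out 1 library moved the number of members called from 0 to between 0 and 2 in the whole library, 0 and 4 in excitatory-neuron-like, 0 and 1 in ganglionic-eminence-progenitor-like, Cajal-Retzius-like, intermediate-progenitor-like, cortical-interneuron-like and striatal-projection-neuron-like cells, and 0 and 2 in oligodendrocyte-precursor-like cells. It moved the number from 2 to between 1 and 2 in radial-glia-like cells and from 3 to between 1 and 3 for the class-by-genotype term. Most of these calls came without a COP1 KO library: Bnip3 and Eno2 without replicate 2, Eno1 without replicate 1, and Ldha in excitatory-neuron-like cells without either. Each fit without 1 library left a single library in a group. Its member count was not compared with the share of all genes called in that fit. Whether these member calls exceed that background was not tested, so they are no result about the set. With no low-count filter 1 member, Ldhb, was called in ganglionic-eminence-progenitor-like cells. Aldoa in radial-glia-like cells stayed called in 15 of 15 alternatives (log2 change 0.49 to 0.76, largest adjusted p 0.0497), and Ldhb in 14 of 15 (0.43 to 0.63). Over all genes, 312 were called in radial-glia-like cells, against 189 with DESeq2, 865 with no filter, 185 in the largest cluster alone and 263 to 524 with 1 library left out. Over the whole library 1 was called, against 177 with DESeq2 and 0 to 1423 with 1 library left out, and in excitatory-neuron-like cells 0, against 55 with DESeq2 and 0 to 1609. The class-by-genotype term called 302, and 69 and 71 without either COP1 KO library. Of 175 alternative values for members past the threshold between radial-glia-like cells and excitatory-neuron-like ones, 172 kept their call, and 3 (Hif1a once, Vegfa in 2) lost it with the same direction. The vessel class could not be fitted with at least 1000 genes per cell. No paired analysis was possible because the labels give no replicate numbers that join COP1 KO and HET mice. Depth limits the low members: Pgam1, Epas1, Adm and Slc16a3 held too few counts for a genotype test in most classes.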
